A study of Mus musculus with 2 samples.

Results

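Alarmin and growth cytokine receptors are the surface proteins through which group 2 innate lymphoid cells (ILC2s) sense tissue damage and receive survival signals. The members were 10 receptor genes chosen by their ligands: Il1rl1 and Il1rap for IL-33, Il18r1 and Il18rap for IL-18, Il17rb and Il17ra for IL-25, Crlf2 and Il7r for thymic stromal lymphopoietin (TSLP), and Il7r, Il2ra and Il2rg for IL-7 and IL-2. All 10 were among the 32285 genes of both count tables, and all 10 had enough UMIs to be compared between the libraries. ILC2s were sorted from the lungs of WT mice and of Pac1-/- mice, which lack the phosphatase PAC1 encoded by Dusp2, and were profiled by droplet-based scRNA-Seq. Most other leukocytes were depleted with magnetic beads, and live cells without lineage markers that stained for CD90.2, Sca-1 and ST2 were then sorted. Mice were young adults on the C57BL/6J background, matched by sex and age, and no challenge or treatment is given for these cells. Cells of several mice were pooled before loading, which left 1 library per genotype and no label that ties a cell to a mouse.

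ILC2s lack antigen receptors and are switched on by alarmins, cytokines that epithelial and stromal cells release when they are damaged. IL-33 binds ST2, the product of Il1rl1, which pairs with the IL-1 receptor accessory protein. IL-25 binds IL-17RB with IL-17RA, and TSLP binds the product of Crlf2 with the IL-7 receptor alpha chain. IL-2 and IL-7 support survival and growth through the common gamma chain, the product of Il2rg, and activated ILC2s answer with IL-5 and IL-13.

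Molecules were counted by UMIs, tags that mark each captured transcript. Barcodes were kept when 500 or more genes were detected and mitochondrial genes gave no more than 10% of UMIs, which held for 8394 of 10866 in WT with 54579034 UMIs and 7087 of 9495 in Pac1-/- with 58338886 UMIs. Median depth was 4186.5 and 5577 UMIs per cell. Dusp2 gave 1419 UMIs in WT and 5 in Pac1-/-, so the libraries followed their genotype labels. All 7 ILC2 markers were detected in both libraries, from 100.4 to 2265 UMIs per 1000000 (CPM) in WT and from 131 to 1686 CPM in Pac1-/-. Of the T cell list, whose only marker at 0 was Cd8a, the summed level was 695 and 954 CPM. The higher sum in Pac1-/- came from Trbc1 (292 and 463 CPM) and Trbc2 (261 and 386 CPM), whereas Cd3d, Cd3e, Cd3g and Trac were lower there, Cd3g at 119 and 93.7 CPM and Cd3e at 10.5 and 5.88 CPM. For the 2 erythroid genes the sum was 61.3 and 204 CPM. The mast cell and basophil list summed to 441 CPM in WT and 238 CPM in Pac1-/-, of which Kit, which ILC2s can also express, made up 428 and 209 CPM. The B cell list summed to 67.1 and 92.7 CPM, the epithelial list to 54.0 and 79.1 CPM and the endothelial list to 42.2 and 38.9 CPM. The myeloid, stromal, NK and ILC1, and ILC3 lists each summed to at most 6.07 CPM in either library. The part of these other transcripts in the results was not tested. The libraries shared 15 of these barcodes, and 564 WT and 402 Pac1-/- cells were predicted doublets that were kept. Because each genotype had 1 library, no difference between genotypes has a replicate check, no p-value was computed, and the 95% intervals given throughout measure counting error and nothing else.

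In GRCm38, 3 of the genes are neighbours on chromosome 1 and the other 7 lie on 7 other chromosomes. On chromosome 1 Il1rl1 (ENSMUSG00000026069) spans 40429570 to 40465415, Il18r1 (ENSMUSG00000026070) spans 40465552 to 40500854, and Il18rap (ENSMUSG00000026068) spans 40515362 to 40551705, all on the plus strand. Il2ra (ENSMUSG00000026770) lies on chromosome 2 from 11642807 to 11693193, and Il2rg (ENSMUSG00000031304) on chromosome X from 101264378 to 101268255. In the GENCODE annotation another gene model overlaps Il2ra (Gm37881) and Il2rg (Gm20489) on the same strand, so reads in the overlap could have been lost or assigned otherwise. The other receptors had no same-strand overlap. The stretches before the starts of Il1rl1, Il18rap and Il2ra are shown because these 3 genes were the receptors higher past 1.5 times in Il5-positive cells of both libraries, as described below. Each is 250 bases long on the plus strand, taken from RefSeq (GRCm38.p6), and Il1rl1 has 2 starts, at chr1:40429320-40429569 for the window of the distal and chr1:40439379-40439628 for that of the proximal start. The windows of Il18rap and Il2ra lie at chr1:40515112-40515361 and chr2:11642542-11642791. Capitals mark the letters of 5 motifs searched on both strands, GATAA (GATA factors), TGANTCA (AP-1), TTCNNNGAA (STAT factors), CCGGAA (ETS factors) and TGACG (CREB), whose letters do not contain each other.
Il1rl1 distal: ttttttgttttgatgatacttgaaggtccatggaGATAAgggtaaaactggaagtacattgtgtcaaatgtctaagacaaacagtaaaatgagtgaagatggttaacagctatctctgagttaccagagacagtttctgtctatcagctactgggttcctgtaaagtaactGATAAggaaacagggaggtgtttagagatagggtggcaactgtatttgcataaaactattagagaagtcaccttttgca
Il1rl1 proximal: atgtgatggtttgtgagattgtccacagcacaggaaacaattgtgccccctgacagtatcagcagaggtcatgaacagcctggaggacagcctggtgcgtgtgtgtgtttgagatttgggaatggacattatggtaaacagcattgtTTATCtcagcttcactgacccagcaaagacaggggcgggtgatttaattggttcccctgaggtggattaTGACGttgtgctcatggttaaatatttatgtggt
Il18rap: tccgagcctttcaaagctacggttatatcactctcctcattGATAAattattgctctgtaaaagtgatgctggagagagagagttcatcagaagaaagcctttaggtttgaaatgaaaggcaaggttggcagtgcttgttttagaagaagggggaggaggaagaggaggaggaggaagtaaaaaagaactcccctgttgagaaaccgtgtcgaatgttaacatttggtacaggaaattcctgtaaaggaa
Il2ra: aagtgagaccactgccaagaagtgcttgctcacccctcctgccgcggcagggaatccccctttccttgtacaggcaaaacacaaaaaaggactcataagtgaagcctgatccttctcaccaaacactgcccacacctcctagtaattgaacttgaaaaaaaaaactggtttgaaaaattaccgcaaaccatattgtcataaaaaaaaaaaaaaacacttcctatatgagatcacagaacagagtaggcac

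GATAA or its complement stood 216 and 79 bases before the distal start of Il1rl1, 103 bases before its proximal start and 209 bases before the start of Il18rap. Of all 32536 promoter windows of this length, 22.5% held it. TGACG stood 34 bases before the proximal start of Il1rl1 and occurs in 17.9% of all windows. None of the 5 motifs stood in the window of Il2ra. RefSeq windows were found for 9 of the 10 receptors, 12 windows in all. In the windows not printed, the STAT motif was found before 1 start each of Il18r1 and Il7r (7.04% of all windows), AP-1 before Il17rb (6.73%) and ETS before Il2rg (12.1%). These are matches of letters in a window, not measurements of binding.

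To establish how much of each receptor transcript the cells held, UMIs were summed over the passing cells of each library. Counting by UMI at the 3′ end counts a transcript once whatever its length, so levels were set side by side without a length correction, although loss of reads particular to a gene, as at the overlaps of Il2ra and Il2rg, was not tested. The receptors fell into 2 ranges. Il1rl1, Il7r, Il2rg and Il2ra lay between 405 and 1112 CPM, and the other 6 lay between 9.31 and 91.0 CPM. In WT, Il1rl1 was the highest at 1112 CPM (95% Poisson interval 1104 to 1121), followed by Il7r at 812 CPM, Il2rg at 794 CPM and Il2ra at 572 CPM. Of the genes with at least 50 UMIs over both libraries, between 97.5% and 98.8% lay below these 4 in either library. In Pac1-/-, Il7r was the highest at 1081 CPM (1073 to 1090) and Il1rl1 came next at 992 CPM (984 to 1000.2), so the first and second places were exchanged.

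**Figure D1:**
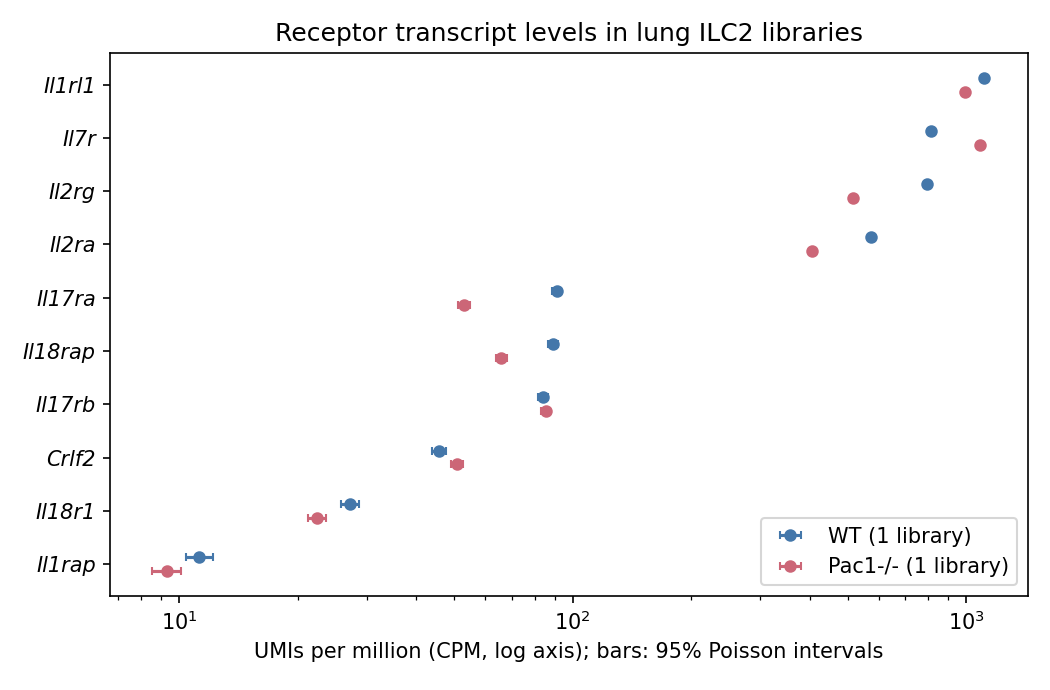
Level of each receptor gene in the WT and the Pac1-/- library. The horizontal axis gives UMIs per 1000000 on a log scale, points are the libraries and bars are 95% Poisson intervals. Il1rl1, Il7r, Il2rg and Il2ra stand apart at 405 CPM and above, and the co-receptor Il1rap is the lowest in both libraries.

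Among the 10 genes, subunits of the IL-33, TSLP and IL-18 receptors differed widely in level, those of the IL-25, IL-7 and IL-2 receptors less. Il2rb, an IL-2 receptor chain outside the 10, was at 188 CPM in WT and 104 CPM in Pac1-/-, below both Il2ra and Il2rg. Il1rap, whose product completes the IL-33 receptor, was at 11.3 CPM in WT and 9.31 CPM in Pac1-/-, the lowest of the 10 in both, beside 1112 and 992 CPM for the ligand-binding Il1rl1. Crlf2, the specific chain for TSLP, was at 45.8 and 50.8 CPM beside 812 and 1081 CPM for Il7r. The chains of the IL-25 receptor were closer to each other, with Il17rb at 84.3 CPM and Il17ra at 91.0 CPM in WT, as were Il7r (812 CPM) and Il2rg (794 CPM) of the IL-7 receptor and Il2ra (572 CPM) and Il2rg of the IL-2 receptor. In Pac1-/-, Il7r and Il2rg lay further apart, at 1081 and 516 CPM. For the IL-18 receptor, the signalling chain Il18rap (89.1 CPM in WT) was above the ligand-binding chain Il18r1 (27.2 CPM). The intervals of Il17ra and Il18rap and those of Il18rap and Il17rb overlapped in WT, as did those of Il17ra (53.0 CPM) and Crlf2 (50.8 CPM) in Pac1-/-, and these neighbours are not ordered at this depth. All other neighbours in the order had intervals apart.

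To examine whether the receptors differed with the genotype, the ratio of Pac1-/- over WT was taken for each gene. Over the 12427 genes with at least 50 UMIs the median log2 ratio was 0.19, and ratios are given relative to that median gene. Il17ra, Il2rg, Il2ra and Il18rap were lower in the Pac1-/- library, while Il7r was higher by less than 1.5 times. Of the 10 receptors, 9 lay below the median gene, where 50% of all genes lie by construction. Past 1.5 times in either direction were 4 of the 10 receptors, against 21% of all genes. All 4 were lower, Il17ra, Il2rg, Il2ra and Il18rap, against 12.8% of all genes, and 0 were higher, against 8.22%. The median over the receptors was −0.46. Abundant genes as a whole leaned the same way, with a median of −0.19 over the 453 genes at 300 CPM or more, of which 23.6% were over 1.5 times lower, and −0.04 over the 2632 genes at 30 to 100 CPM, of which 9.08% were.

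Il17ra, which IL-25 and IL-17A receptors share, had the lowest ratio. It was at 91.0 CPM (88.5 to 93.6) in WT and 53.0 CPM (51.1 to 54.9) in Pac1-/-, a relative log2 ratio of −0.97 (−1.03 to −0.90), and its Poisson intervals did not overlap. Its partner Il17rb, at 84.3 and 85.4 CPM, had overlapping intervals and a log2 ratio of 0.02 before and −0.17 after scaling to the median gene, so that its direction depended on the scaling. In Pac1-/- the chains of the IL-25 receptor were thus at 85.4 and 53.0 CPM, whereas they had been nearly level in WT.

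The IL-2 receptor chains were lower together. Il2rg, the common gamma chain, was at 794 CPM (786 to 801) in WT and 516 CPM (509.8 to 521) in Pac1-/-, a relative log2 ratio of −0.81 (−0.83 to −0.79). Il2ra, the chain that raises the affinity for IL-2, was at 572 and 405 CPM (−0.68, −0.71 to −0.66). Neither gene had overlapping intervals. As counted, the log2 ratios were −0.62 and −0.50, and Il2ra then lay within 1.5 times.

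Of the IL-33, IL-18 and TSLP receptor chains, 1 (Il18rap) was over 1.5 times lower. It was at 89.1 CPM in WT and 65.9 CPM in Pac1-/- (−0.62, −0.68 to −0.56, and within 1.5 times as counted, at −0.44), and Il18r1 was at 27.2 and 22.4 CPM (−0.47, −0.57 to −0.36). Il1rl1 had a relative log2 ratio of −0.35 (−0.37 to −0.34) and Il1rap one of −0.46 (−0.63 to −0.29). ST2 protein, encoded by Il1rl1, was a gate of the sort, so that cells without it had been left out in both genotypes. Crlf2 was not distinguishable from the median gene (−0.04, −0.11 to 0.04) and was higher as counted, at 0.15. Il7r was the only receptor above the median gene, at 0.23 (0.21 to 0.24), and 0.41 as counted.

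Il5-positive cells were more frequent in the WT library, at 32.3% of thinned cells against 19.1% in Pac1-/-. For Il13 the shares were 13.9% in WT and 9.52% in Pac1-/-, and for Il2 they were 7.41% and 7.51%. The comparison was therefore repeated within cytokine classes. For this and for all shares of cells, 1500 UMIs were drawn at random from every cell, which left 7634 WT and 6564 Pac1-/- cells and left out 760 and 523 shallower ones. Among cells without an Il5, Il13 or Il2 UMI (4301 in WT and 4582 in Pac1-/-), Il17ra was at 106 and 53.0 CPM, a relative log2 ratio of −1.16 (−1.34 to −0.97). In the same cells Il2rg was at −0.66 (−0.73 to −0.60), Il18rap at −0.64 (−0.84 to −0.43) and Il2ra at −0.50 (−0.58 to −0.42). These were 3 receptors over 1.5 times lower and 0 higher, with 18.5% of 9471 genes past 1.5 times in either direction. The lower level of these genes in Pac1-/- was thus also seen where no cytokine was detected at 1500 UMIs per cell. Over all passing cells with all UMIs, the share with Il5 was 53.1% (WT) and 39.5% (Pac1-/-). The class without cytokine can therefore still hold cells that express one. The part of cell composition in the lower levels was not tested.

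Among Il5-positive cells (2464 in WT and 1251 in Pac1-/-) the same 3 genes were over 1.5 times lower, with 18.7% of genes past 1.5 times in either direction. There the relative log2 ratio was −0.74 (−1.04 to −0.45) for Il17ra, −0.74 (−0.84 to −0.64) for Il2rg, −0.64 (−0.91 to −0.37) for Il18rap and −0.35 (−0.46 to −0.25) for Il2ra. Among Il13-positive cells (1062 and 625), Il17ra was at −0.98 (−1.47 to −0.51) and Il2rg at −0.60 (−0.75 to −0.46), both past 1.5 times, which made 2 of 9 receptors tested against 20.8% of genes in either direction. Il7r stayed above the median gene in all 3 classes, from 0.19 to 0.28. Crlf2 lay at −0.15 (−0.38 to 0.08) in the cells without cytokine and at 0.41 (0.06 to 0.77) in the Il5-positive cells, a value from 1 random draw of UMIs, and the difference between classes was not tested.

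**Figure D2:**
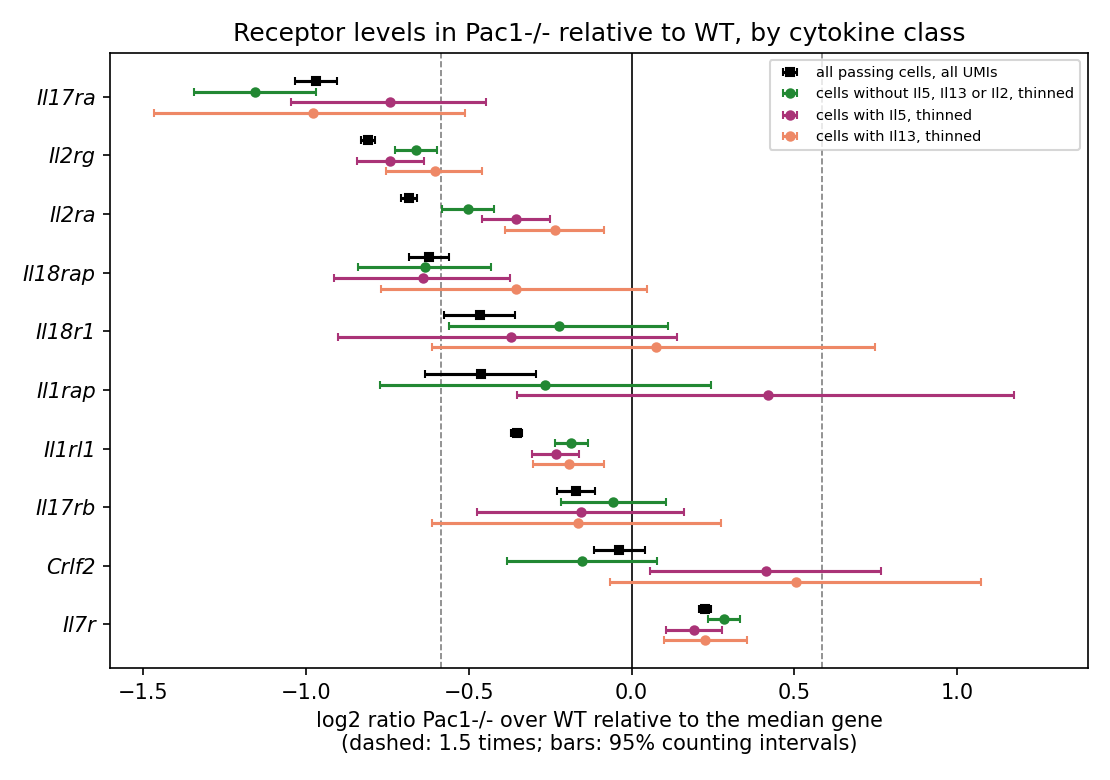
Log2 ratio of Pac1-/- over WT for each receptor relative to the median gene. Squares are all passing cells with all UMIs, circles are cytokine classes of thinned cells, bars are 95% counting intervals and dashed lines mark 1.5 times. Il17ra and Il2rg lie beyond the lower line in every class, and Il7r lies above 0 in every class.

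Shares of cells at equal depth gave the same order of genotypes for the abundant genes. For Il2rg the share was 65.7% in WT (64.6 to 66.7) and 52.1% in Pac1-/- (50.9 to 53.3), with exact binomial intervals. For Il2ra the shares were 48.3% and 39.9%, and for Il7r they were 66.95% and 76.8%. Il17ra was found in 13.8% (13.1 to 14.6) and 7.95% (7.31 to 8.63) of cells, and Il18rap in 11.8% and 7.88%. Shares of Il1rl1 were 73.6% and 72.0%, those of Il17rb 11.5% and 11.99%, of Crlf2 6.60% and 7.36%, of Il18r1 3.46% and 3.18% and of Il1rap 1.55% and 1.52%, each pair with overlapping intervals. With all UMIs, at the greater depth of the Pac1-/- cells, the shares of Il2ra were 76.2% and 75.8%.

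Free RNA was examined in cells that carried at least 3 markers of B, myeloid, stromal, endothelial or epithelial cells, 16 in WT and 40 in Pac1-/- after thinning. Their median depths were 8651.5 and 4561 UMIs, beside 4443 and 5786 UMIs in the other cells. Il1rl1 was found in 43.8% of these WT cells (19.8 to 70.1) and 35.0% of these Pac1-/- cells (20.6 to 51.7), below the 73.7% and 72.2% of the other cells. For Il7r the shares were 31.3% and 37.5%, against 67.0% and 77.1%. The interval lay below the share of the other cells for Il1rl1, Il7r and Il2ra in both libraries and for Il2rg in Pac1-/-. It held that share for Il2rg in WT and for the other 6 receptors in both libraries, for which no share above background was shown, and Il17ra reached 5 of 16 in WT. The few cells limit this comparison, B cells themselves carry common gamma chain transcripts, and doublets with ILC2s were not removed.

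To establish whether receptors occurred in the same cells, the 45 pairs were counted in thinned cells and set against the product of their shares. At this depth a cell showed 3.03 of the 10 receptors on average in WT (SD over cells 1.18) and 2.81 in Pac1-/- (1.14). Independent detection with the same shares would give SDs of 1.15 and 1.11. A cell without any of the 10 was found for 1.17% of WT and 1.81% of Pac1-/- cells, and 7 receptors were the most in any cell. The ligand-binding chains for all 3 alarmins IL-33, IL-25 and TSLP (Il1rl1, Il17rb and Crlf2) were found together in 41 WT and 35 Pac1-/- cells, 0.537% and 0.533%, where the products of the shares were 0.558% and 0.635%. At this depth receptors were therefore found together nearly as often as their shares alone would give. The same held for gene pairs in general. Over all pairs of genes found in at least 5% of thinned cells, the median odds ratio was 1.007 in WT and 1.009 in Pac1-/-.

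At 1500 UMIs the interval of the odds ratio held 1 for each of the 6 complexes in both libraries. With cells thinned to 3000 UMIs, Il2ra and Il2rg had an odds ratio of 1.34 in WT and 1.19 in Pac1-/-. Il18r1 and Il18rap had one of 1.23 in WT and 1.85 in Pac1-/-. This setting also kept fewer cells, and what moved the values was not tested. Both chains of the IL-7 receptor, Il7r and Il2rg, shared 43.8% of the WT and 39.9% of the Pac1-/- cells, where the products of the shares were 44.0% and 40.1%. Il2ra and Il2rg were found together in 32.1% and 21.1% of cells (products 31.7% and 20.8%), Crlf2 and Il7r in 4.52% and 5.71% (4.42% and 5.65%), and Il17rb and Il17ra in 1.53% and 0.929% (1.59% and 0.953%). For these 4 complexes the odds ratios lay between 0.956 and 1.08 in both libraries at 1500 UMIs, and Crlf2 and Il7r in WT were at 0.888 with another random draw of UMIs. Il1rl1 and Il1rap were found together in 91 WT and 75 Pac1-/- cells, 1.19% and 1.14%, at odds ratios of 1.21 (0.777 to 1.94) and 1.17 (0.733 to 1.93). Il18r1 and Il18rap were found together in 40 and 15 cells, at 1.35 (0.934 to 1.92) and 0.901 (0.491 to 1.54). With Il1rap and Il18r1 in under 5% of cells, these last intervals are wide.

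Of the 28 pairs whose genes were both found in at least 5% of cells, 0 had an odds ratio over 1.5 in either library, where 1.53% of all such gene pairs in WT and 1.78% in Pac1-/- did. Under 1/1.5 the count was also 0, against 1.41% and 1.75% of pairs. The highest was the same pair in both libraries. Il2ra was found in 50.2% of WT cells with an Il1rl1 UMI and 43.0% of those without, an odds ratio of 1.33 (1.20 to 1.48), and in 41.5% and 35.9% of Pac1-/- cells, an odds ratio of 1.27 (1.13 to 1.42). Within Il5-positive cells this odds ratio was 1.51 (1.23 to 1.86) in WT and 1.61 (1.22 to 2.12) in Pac1-/-, and within Il5-negative cells it was 1.18 (1.05 to 1.34) and 1.17 (1.03 to 1.33). The other pair whose interval stood apart from 1 in both libraries was Il17rb and Il7r, at 1.22 (1.04 to 1.42) and 1.21 (1.003 to 1.46), and within Il5-positive or Il5-negative cells alone its intervals held 1. Among pairs with a rarer gene, Il18r1 and Il2ra had an odds ratio of 1.62 (1.25 to 2.10) in WT and Il18r1 and Il17rb one of 0.589 (0.347 to 0.947), while in Pac1-/- both intervals held 1. In WT, Il18r1 with Il2rg (1.44, 1.08 to 1.92) and with Il1rl1 (1.37, 1.01 to 1.89) also stood apart from 1. In Pac1-/- the most extreme pairs were Il1rap with Il17ra (1.91, 0.994 to 3.41) and Il18r1 with Crlf2 (0.558, 0.25 to 1.09), whose intervals held 1. Tcf7, a factor of progenitor cells, was found in 14 of 264 WT cells with Il18r1 (5.30%, 2.93 to 8.74) against 2.99% of the others, and in 9 of 209 Pac1-/- cells (4.31%, 1.99 to 8.02) against 2.39%.

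**Figure D3:**
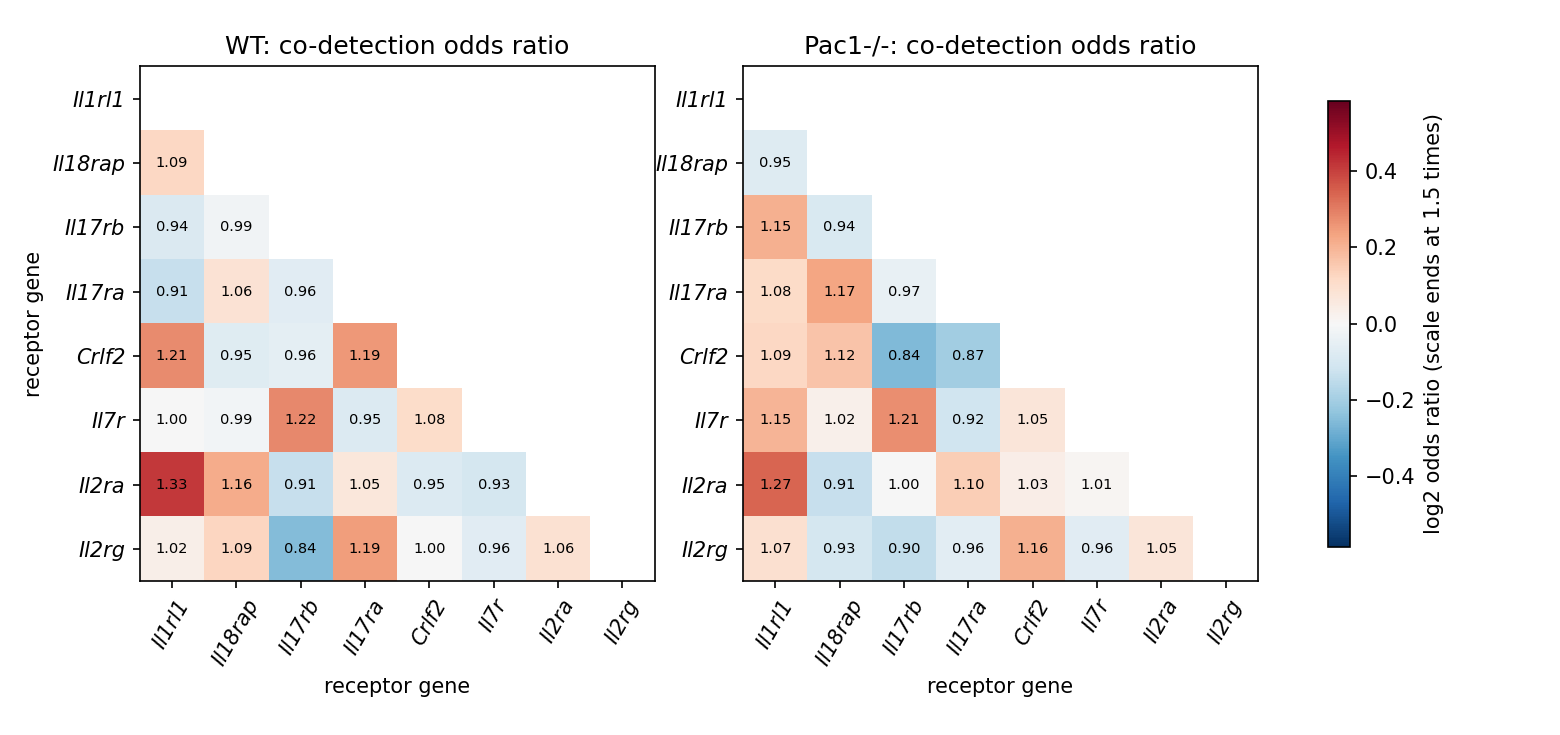
Odds ratio of detection in the same cell for the 28 pairs of receptors found in at least 5% of thinned cells, WT at the left and Pac1-/- at the right. Colour and number give the odds ratio, and the colour scale ends at 1.5 times. Il1rl1 with Il2ra is the highest pair in both libraries, at 1.33 and 1.27, and most pairs lie near 1.

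The genes whose detection most resembled that of each receptor were ranked by the phi coefficient, a correlation of detection across the thinned cells of 1 library, with the lower of both libraries taken. Over 3207 or 3208 genes, according to the receptor, only Il2ra had partners at 0.1 or more. These were Kdm6b, a histone demethylase (0.124 in WT and 0.116 in Pac1-/-), Il5 (0.123 and 0.103) and Ell2, an elongation factor (0.108 and 0.103). For the other 9 receptors the highest phi was at most 0.0614.

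To ask which receptors went with cytokine expression, cells with and without a UMI of a cytokine were compared within each library at the same 1500 UMIs. Il5-positive cells carried more Il2ra, Il18rap and Il1rl1 and less Il17rb than the other cells, in WT and in Pac1-/-. In WT, 2464 of 7634 cells were Il5-positive and 3 of 10 receptors were over 1.5 times higher in them, where 6.84% of all genes were. In Pac1-/-, 1251 of 6564 cells were Il5-positive and 4 of 10 were over 1.5 times higher, where 8.81% of genes were, the fourth being Il1rap on 27 UMIs in the positive cells, which with all UMIs was at −0.022. No receptor was over 1.5 times lower in either, against 6.25% and 8.48% of genes. Abundant genes as a whole were higher in these cells relative to the median gene, by a median of 0.19 in WT and 0.23 in Pac1-/- for genes at 300 CPM or more. Of those genes, the range of Il1rl1 and Il2ra, 14.8% in WT and 20.5% in Pac1-/- were over 1.5 times higher. Of genes at 30 to 100 CPM, 5.74% and 8.20% were. The positive cells had been deeper before thinning, with medians of 5554 against 4153.5 UMIs in WT and 7238 against 5610 in Pac1-/-, and the part of this in the result was not tested.

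Il2ra was at 675 CPM in the Il5-positive and 437 CPM in the Il5-negative WT cells, a relative log2 ratio of 0.80 (0.73 to 0.88). In Pac1-/- the levels were 567 and 341 CPM, a ratio of 0.94 (0.84 to 1.05). Il18rap was at 119 and 74.3 CPM in WT (0.86, 0.68 to 1.04) and at 82.2 and 51.95 CPM in Pac1-/- (0.87, 0.60 to 1.14). Both genes were thus higher in Il5-positive cells of both libraries. As counted, the log2 ratios were 0.63 and 0.73 for Il2ra and 0.68 and 0.66 for Il18rap, which are still past 1.5 times. At 1000 UMIs per cell Il18rap in Pac1-/- was at 0.37, within 1.5 times.

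Il1rl1 was at 1324 and 954 CPM in WT (0.65, 0.60 to 0.70) and at 1211 and 932 CPM in Pac1-/- (0.59, 0.52 to 0.65). In Pac1-/- this was just past 1.5 times, and as counted the log2 ratios were 0.47 and 0.38, within it, as were the relative ratios at 3000 UMIs per cell (0.58 and 0.53) and with all UMIs (0.47 and 0.36). Il18r1, whose chain binds IL-18, was at 0.52 (0.17 to 0.88) in WT and 0.33 (−0.17 to 0.80) in Pac1-/-. With another random draw it was at 0.80 and 1.01, past 1.5 times in both libraries. At 1000 UMIs it was at 0.87 and 0.77, also past 1.5 times, so its call differed between settings. Il2rg was higher by less, at 0.42 (0.36 to 0.49) and 0.33 (0.23 to 0.43). Il7r, which the same cells carried at 770 against 854 CPM in WT, lay at the median gene there (0.03, −0.04 to 0.09) and slightly below it in Pac1-/- (−0.08, −0.16 to −0.01).

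Il17rb went the other way. It was at 69.1 CPM in Il5-positive and 93.2 CPM in Il5-negative WT cells, and at 66.7 and 96.0 CPM in Pac1-/-, and its relative log2 ratio was −0.26 (−0.47 to −0.05) and −0.31 (−0.60 to −0.04). It was the only receptor whose interval lay below the median gene in both libraries. Its partner Il17ra was at 0.16 (−0.02 to 0.34) in WT and 0.54 (0.24 to 0.83) in Pac1-/-, and Crlf2 was at 0.08 (−0.19 to 0.35) and 0.58 (0.27 to 0.88). With another random draw of UMIs the Pac1-/- values were 0.28 for Il17ra and 0.04 for Crlf2, so the value of Crlf2 rested on the draw. For both genes the difference between the libraries was not tested.

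**Figure D4:**
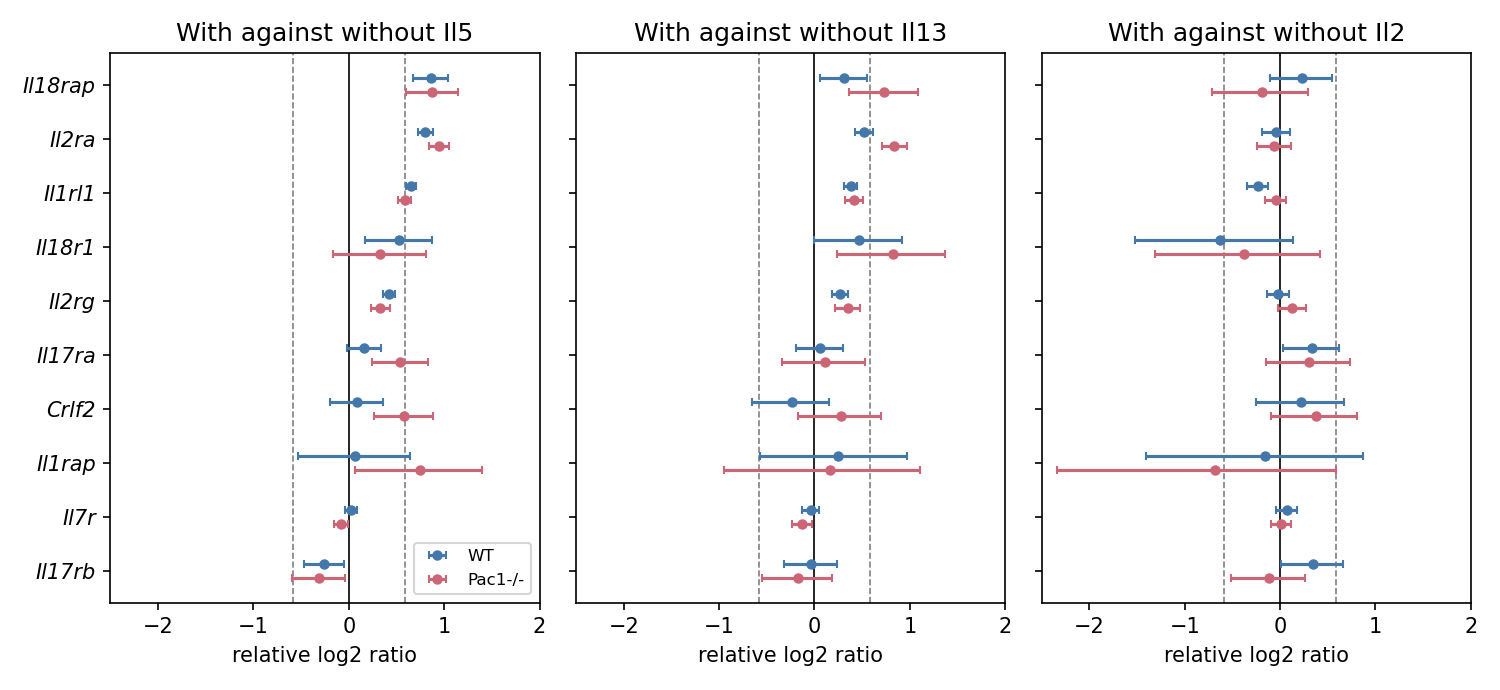
Relative log2 ratio of each receptor in cells with against cells without a UMI of Il5, Il13 or Il2, at 1500 UMIs per cell. Blue points are WT and red points Pac1-/-, bars are 95% counting intervals and dashed lines mark 1.5 times. Il18rap, Il2ra and Il1rl1 lie beyond the upper line for Il5 in both libraries, Il17rb lies below 0 for Il5, and most intervals reach 0 for Il2.

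Il13-positive cells, 1062 in WT and 625 in Pac1-/-, carried more Il2ra than the others. It was at 646 against 492 CPM in WT (0.52, 0.42 to 0.62) and at 577 against 364 CPM in Pac1-/- (0.84, 0.70 to 0.97). Il1rl1 was at 0.38 (0.31 to 0.45) and 0.42 (0.32 to 0.51), and Il18rap at 0.31 (0.05 to 0.55) and 0.73 (0.36 to 1.08). In WT 0 receptors were over 1.5 times higher, against 4.49% of genes, and in Pac1-/- 3 were (Il2ra, Il18rap and Il18r1), against 8.5% of genes. Of genes at 300 CPM or more, 6.77% in WT and 14.2% in Pac1-/- were over 1.5 times higher. No receptor was over 1.5 times lower, against 9.28% and 12.7% of genes. The counts depended on the setting, since with all UMIs 0 receptors were over 1.5 times higher in Pac1-/- (Il2ra at 0.51) and without barcodes over 2 times the median UMIs 2 were in WT. Il18r1 in Pac1-/- rested on 32 UMIs and ran from 0.35 at 1000 UMIs to 1.30 with another random draw, and the difference between the libraries was not tested. Il17rb, at −0.04 (−0.32 to 0.24) and −0.17 (−0.55 to 0.19), could not be told from the median gene at this depth.

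Cells were then divided into those with neither cytokine, with 1 of them, and with both. Il2ra stood lowest in cells with neither, at 425 CPM in WT and 334 CPM in Pac1-/-, then came cells with Il13 only (538 and 444 CPM), cells with Il5 only (653 and 516 CPM) and cells with both (754 and 761 CPM). The intervals of neighbouring classes were apart except for Il13 only and Il5 only in Pac1-/-, which are not ordered at this depth. Between cells with both and with neither, its relative log2 ratio was 1.07 (0.94 to 1.20) in WT and 1.53 (1.36 to 1.71) in Pac1-/-, the highest of the 10 receptors in each.

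Il1rl1 ran from 938 and 927 CPM in cells with neither to 1390 and 1329 CPM in cells with both (0.81, 0.72 to 0.90 in WT and 0.86, 0.73 to 0.99, in Pac1-/-). The intervals of its Il5 only and both classes overlapped in both libraries, as did those of neither and Il13 only in Pac1-/-, and these are not ordered at this depth. Il18rap was at 72.7 and 50.5 CPM with neither and at 109 and 94.2 CPM with both (0.83, 0.48 to 1.16, and 1.24, 0.72 to 1.73). Past 1.5 times higher were 4 receptors in WT, against 12.4% of genes, and 7 in Pac1-/-, against 17.9%. Of genes at 300 CPM or more, 26.3% in WT and 35.4% in Pac1-/- were. Of genes at 30 to 100 CPM, 12.5% and 18.9% were. No receptor was past 1.5 times lower, against 17.8% and 22.1% of all genes. As counted the numbers higher were 2 and 3, and 2 were lower in Pac1-/-. Il17rb ran from 93.6 and 96.95 CPM with neither to 65.2 and 58.6 CPM with both. Il7r ran from 865 and 1167 CPM to 732 and 827 CPM. Relative to the median gene, which itself was at −0.24 and −0.34 in this comparison, Il17rb was at −0.28 (−0.72 to 0.13) and −0.38 (−1.05 to 0.21) and Il7r at 0.003 (−0.12 to 0.13) and −0.15 (−0.32 to 0.01), and all of these intervals held 0. The double-positive class held 534 WT and 263 Pac1-/- cells, and Il1rap gave 7 and 2 UMIs there.

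**Figure D5:**
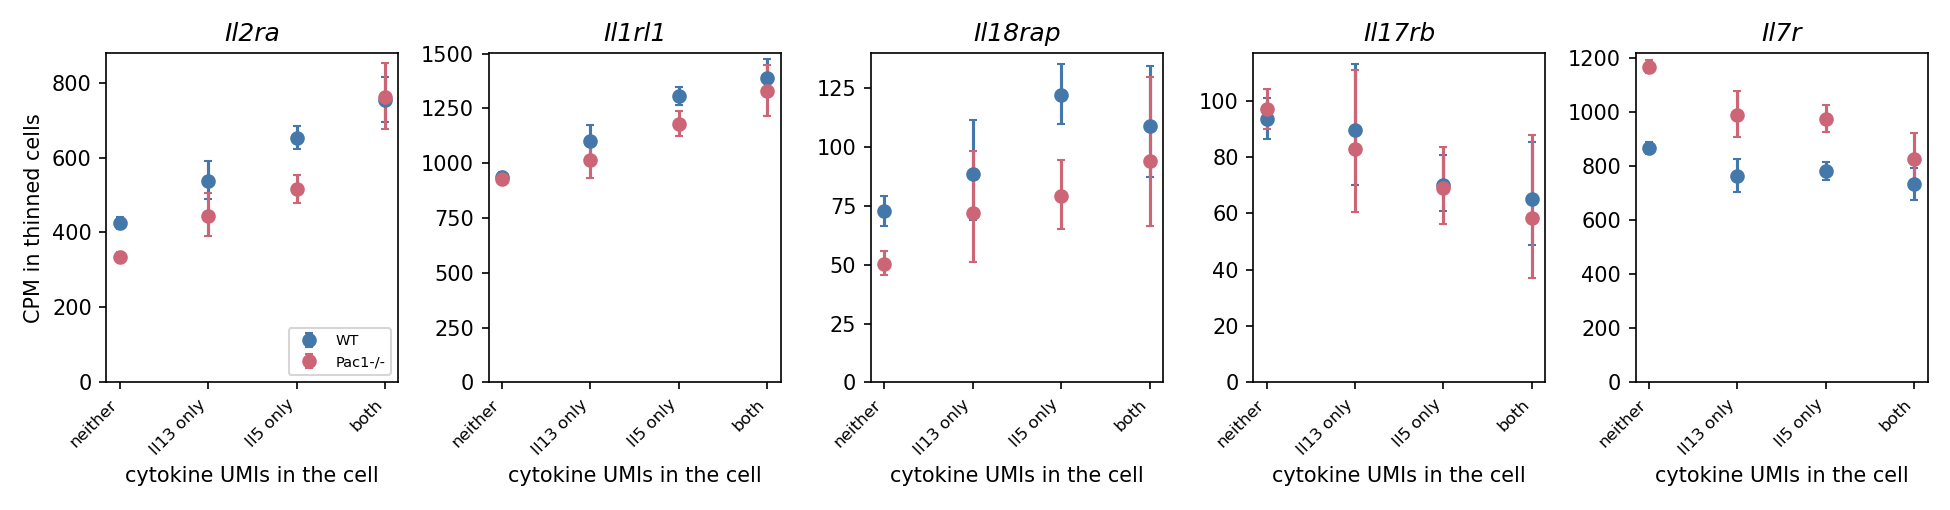
Level of 5 receptors in cells with neither Il5 nor Il13, with Il13 only, with Il5 only and with both, at 1500 UMIs per cell. Axes give UMIs per 1000000 from 0, points are the libraries (WT blue, Pac1-/- red) and bars are 95% Poisson intervals. Il2ra and Il1rl1 are lower in cells with neither than in cells with both in both libraries. Il17rb and Il7r have a higher CPM in cells with neither, but relative to the median gene their intervals between both and neither hold 0.

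With Il2 status the receptors differed little. Il2-positive cells were 566 in WT and 493 in Pac1-/-, and Il2ra was at 493 against 515 CPM in WT (−0.04, −0.19 to 0.10) and at 363 against 386 CPM in Pac1-/- (−0.06, −0.25 to 0.12). In neither library was a receptor over 1.5 times higher, against 6.13% and 5.33% of genes. A single receptor was over 1.5 times lower in each, Il18r1 in WT on 14 UMIs and Il1rap in Pac1-/- on 5 UMIs, against 9.5% and 9.66% of genes, and both intervals held 0. Il1rl1 was lower in Il2-positive WT cells, at 909 against 1086 CPM (−0.24, −0.34 to −0.13), and at −0.05 (−0.16 to 0.07) in Pac1-/-. With all UMIs the WT value of Il1rl1 was −0.07, outside its interval. Il17rb and Il17ra were at 0.34 (0.01 to 0.66) and 0.33 (0.03 to 0.62) in Il2-positive WT cells, and both intervals held 0 in Pac1-/-. Neither direction was stable, since WT Il17ra was at −0.067 with another random draw of UMIs and WT Il17rb at −0.23 with 1000 UMIs per cell. The 241 WT cells with a Dusp2 UMI had 0 receptors over 1.5 times higher, against 11.1% of genes, and 0 lower, against 17.5%, and Il1rl1 was at 908 against 1078 CPM in them (−0.22, −0.38 to −0.06).

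The other genes of these pathways were taken from lists chosen with earlier results known. Of 12 other receptor subunits, 10 had enough UMIs, with a median of −0.24 over the 10. In Pac1-/-, 0 were over 1.5 times higher, against 8.22% of all genes, and 3 were lower, against 12.8%. Il2rb, the signalling chain for IL-2 and IL-15, was at 188 CPM in WT and 104 CPM in Pac1-/- (−1.05, −1.09 to −1.0). Il4ra, the chain that binds IL-4, was at 135 and 79.2 CPM (−0.96, −1.01 to −0.91), and the decoy receptor gene Il1r2 at 98 and 25 UMIs. Beside Il2ra and Il2rg, the IL-2 and IL-4 receptor chains were thus lower in the Pac1-/- library. Il9r, whose product also pairs with the common gamma chain, was at 64.0 and 84.7 CPM (0.22, 0.15 to 0.28).

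Of 9 ligand genes, 3 had enough UMIs, and Il1b was higher, at 8 UMIs in 7 WT cells and 102 UMIs in 8 Pac1-/- cells. Il33 gave 6 and 10 UMIs, Tslp 2 and 1, and Il25 none, so hardly any transcripts of these 3 alarmins were seen. Of 12 signalling genes, 0 were higher, against 8.22% of all genes, and 1 was lower, against 12.8%. This was Irak2, a gene of the IL-1 receptor-associated kinase family, at 80.5 and 52.9 CPM (−0.79, −0.86 to −0.73). Jak2 was at −0.50 (−0.54 to −0.46), and Myd88 at 0.04 (−0.13 to 0.20).

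By Il5 status, 5 of the other subunits could be compared and 3 were over 1.5 times higher in both libraries, where 6.84% and 8.81% of all genes were. Of genes at 100 to 300 CPM, 11.4% in WT and 14.1% in Pac1-/- were. Il2rb was at 258 CPM in Il5-positive and 125 CPM in Il5-negative WT cells (1.22, 1.09 to 1.35) and at 204 and 68.5 CPM in Pac1-/- cells. Il4ra was at 169 and 98.9 CPM in WT and at 127 and 62.2 CPM in Pac1-/-. Il15ra, the chain that presents IL-15, was at 50.97 and 22.1 CPM in WT and at 44.3 and 18.8 CPM in Pac1-/-. Of the 12 signalling genes 2 were higher in each library, against the same shares of all genes, and none was lower in WT, against 6.25%, and 1 in Pac1-/-, against 8.48%. Jak3 was the lower one, at 11.2 against 22.2 CPM (−0.78, −1.50 to −0.12), and its difference between libraries was not tested. The higher genes were Jak2 and Stat5a, whose products carry cytokine receptor signals, and Jak2 was at 252 against 173 CPM in WT and 253 against 146 CPM in Pac1-/-.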

How the data were processed

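Lung ILC2s were profiled with 10x Genomics 3′ chemistry. The deposited files hold raw UMI counts for every gene in every barcode, produced by the authors in Cell Ranger on mm10 and not normalized. The submitters' processing notes give version 6.1.1 and the file header 4.0.0. The annotation release is not given in the sources used here. Members and lists were chosen with earlier results of these data known.

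UMIs were summed over passing cells and divided by the library total to give CPM with exact Poisson intervals. Ratios carry exact conditional binomial intervals, shares Clopper-Pearson intervals and odds ratios exact conditional ones, all at 95% and for counting error only. Genes with at least 50 UMIs were compared, and past 1.5 times is a rule of size, not a test. Each cell was thinned to 1500 UMIs, the largest of the depths tried that kept 90% of cells in both libraries. Doublets (scored against simulated doublets at 0.8% per 1000 barcodes) were left out only as an alternative. The genes-per-cell and mitochondrial limits of a stricter filter (1000 to 2500 genes, at most 5%) would leave 5557 WT and 4081 Pac1-/- cells. Alternatives also changed the cell filter, thinning depth and seed, scaling and UMI minimum. Named were the 10 receptors, genes with a phi of at least 0.1 among each receptor's top 3, listed pathway genes past 1.5 times between libraries, and Il5, Il13, Il2 and Dusp2; Il9r, Jak2, Jak3, Stat5a, Myd88, Tcf7, Il15ra, Il33, Tslp and Il25 were picked after their values were seen. UMIs of the cytokine that defined a class stayed out of the class totals in comparisons within a library. Where genotypes were compared within a class, they stayed in. Scripts ran in Python 3.11.15 (scipy 1.17.1, numpy 2.4.6, scikit-learn 1.9.0, pandas 2.3.3, matplotlib 3.10.9) and were tested on simulated data. Positions came from GENCODE vM21 and windows from RefSeq.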

Additional observations from a re-analysis of the deposited data

How the results depend on the processing

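No paired analysis was possible because each genotype had 1 library, and no replicate could be left out. Of 805 alternative values, 664 stayed within the counting interval of the value reported or, for counts, within 1.5 times of it. Of 590 alternative log2 ratios, 58 lay on the other side of 0, 34 of them by Il2 status, and for 5 of the 58 the interval of the value reported lay apart from 0. Between genotypes, 2 instead of 4 receptors were over 1.5 times lower as counted (Il17ra and Il2rg), and the receptors' median was −0.28 as counted and −0.24 within cells without an Il5, Il13 or Il2 UMI. Of those 5, Il17rb between genotypes turned to 0.018 as counted. With every cell thinned to the same depth, an alternative chosen after seeing the data, Il18rap moved to −0.80, and over all alternatives Il17ra ran from −1.16 to −0.78. At 3000 UMIs, 1 WT pair (Il1rl1 and Il2ra) and 2 Pac1-/- pairs (Il1rl1 and Il7r, Il18r1 and Il18rap) had odds ratios over 1.5. Pac1-/- Il17rb and Il17ra moved to 1.23 at 1000 UMIs. By Il5 status, receptors over 1.5 times higher numbered 5 in WT at 1000 UMIs, and 2 in Pac1-/- as counted and with all UMIs. By Il13 status they numbered 1 in WT at 1000 UMIs, 2 in WT without barcodes over 2 times the median UMIs, and in Pac1-/- 1 at 1000 UMIs and 0 with all UMIs. By Il2 status, receptors over 1.5 times lower in WT numbered 2 at 1000 UMIs and 0 at 3000 UMIs, with another seed and with all UMIs, and in Pac1-/- 0 at 3000 UMIs, with all UMIs, without barcodes over 2 times the median UMIs and without predicted doublets. Higher by Il2 status was 1 receptor in WT with another seed and in Pac1-/- at 1000 UMIs. The other 4 of those 5 turns were WT Il17rb by Il2 status at 1000 UMIs (−0.23), WT Il17ra by Il2 status with another seed (−0.067) and with all UMIs (−0.12), and Pac1-/- Il1rap by Il5 status with all UMIs (−0.022). With a minimum of 10 UMIs, 5 other subunits and 2 ligands were past 1.5 times. Causes of these shifts were not tested. Il1rap and Il18r1, each found in under 5% of thinned cells, rested on few UMIs, and their intervals are wide.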
